A study of Mus musculus with 6 samples.

Results

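Chromosome 11 carries the mouse alpha-globin genes, and it held 104 of the 983 ATRX peaks listed for erythroid foetal liver cells and 107 of the 2054 listed for mouse embryonic fibroblasts (MEFs). These 211 of 3037 peaks were selected by chromosome alone, and none was filtered out. The chromosome itself was chosen by its count of foetal liver peaks, so the counts per chromosome are a description here. Binding was profiled by ChIP-seq, the sequencing of DNA pulled down with an antibody (here ATRX H300), after fixation with EGS and formaldehyde, a double crosslink that also holds proteins bound to DNA through partners. The MEFs were wild-type C57BL/6 embryonic connective-tissue cells grown in culture, with no treatment or embryo age given for this library. The erythroid cells were taken from wild-type C57BL/6 E14.5 foetal livers with magnetic beads against Ter119, a surface protein of maturing red cells, and no treatment is given. How many embryos went into each library is not given in the sources used here. The series has 6 samples. The other 4, which are ATRX from Suv39h1/2 knockout MEFs, ATRX and input from W8 MEFs, and an input of the C57BL/6 MEFs, were not analysed here.

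ATRX is a SWI/SNF-family chromatin remodeller that works with the histone chaperone DAXX to place histone H3.3, and it is known for binding G-rich tandem repeats, telomeres and pericentromeric repeats. Mutations in the human gene cause ATR-X syndrome, in which alpha-thalassaemia, a shortage of alpha-globin chains, accompanies intellectual disability. The alpha-globin genes encode subunits of haemoglobin and are highly expressed in erythroid cells and not in fibroblasts. In mouse, their enhancers lie upstream, several of them within introns of the neighbouring gene Nprl3. In the RefSeq gene order of assembly GRCm38.p6 the neighbourhood on chromosome 11 reads Snrnp25, Rhbdf1, Mpg, Nprl3, then the embryonic globin gene Hba-x, then Hba-a1, Hbq1b, Hba-a2 and Hbq1a, then Sh3pxd2b. The peak lists are in mm9, a different build, so no peak was assigned to any of these genes or enhancers, and the sequence under the peaks was not analysed here.

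Each list came from 1 library, with no replicate, so no difference between the cell types could be set against the spread between cultures or animals, and no test was made. The files give positions only, and the depth behind a peak and its height are unknown. Markers of the labelled cell types cannot be checked in such files. All intervals are exact 95% intervals that cover the counting of peaks and nothing else. Neighbouring peaks are not independent, so the true uncertainty is larger.

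The foetal liver list was denser on chromosome 11 than on any other chromosome, and the MEF list was not. Foetal liver had 0.875 peaks per Mb of sequence there, which ranked 1 of 21 chromosomes, ahead of chromosome 19 with 0.617. MEFs had 0.9003 peaks per Mb, which ranked 8 of 21. The chromosome held 10.6% of the foetal liver list (8.73 to 12.7%) and 5.21% of the MEF list (4.29 to 6.26%), a ratio of 2.03. Without the peaks of the alpha-globin window described next, 95 of 974 foetal liver peaks (9.75%) lay on chromosome 11, still rank 1, and the ratio was 1.91.

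**Figure D1:**
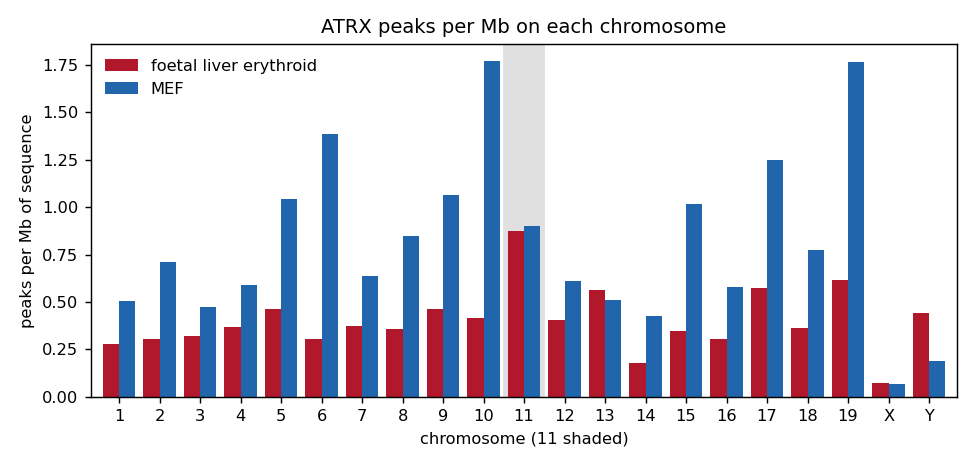
ATRX peaks per Mb of sequenced chromosome (y axis) on each of 21 chromosomes (x axis), with 1 bar per list and chromosome 11 shaded. On chromosome 11 the bars are nearly level, at 0.875 for foetal liver and 0.9003 for MEFs, while the MEF bar is taller on most other chromosomes.

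In the 1 Mb from 31500001 to 32500000, the window set around the alpha-globin locus, foetal liver had 9 peaks (exact Poisson interval 4.12 to 17.1) and MEFs had 2 (0.242 to 7.22). The 9 foetal liver peaks covered 8154 bp and the 2 MEF peaks 1970 bp. The rest of chromosome 11 averaged 0.806 foetal liver peaks and 0.891 MEF peaks per Mb. Of 2677 windows of this size on the same grid over all chromosomes, 3 had more foetal liver peaks. No peak of one list overlapped a peak of the other in this window, and the foetal liver peaks all lay between the 2 MEF peaks.

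The foetal liver peaks of the window fell into a proximal and a distal group, 387.5 kb apart. The distal group of 5 peaks spanned 52.2 kb and held 0 MEF peaks. Its first 3 members were at 32145340 to 32146109 (770 bp), 32150552 to 32152121 (1570 bp) and 32155843 to 32156414 (572 bp), with gaps of 4442 and 3721 bp between them. These 3 made up the only chain of more than 2 foetal liver peaks on the chromosome in which each peak lay within 10 kb of the next. After 29896 bp without a peak came 32186311 to 32186663 (353 bp) and, 9147 bp further on, 32195811 to 32197563. The last of these, at 1753 bp, was the widest foetal liver peak of the window and ranked 8 by width among the 104 on the chromosome. Among all 899 runs of 5 successive foetal liver peaks in the genome, 20 were shorter than this group, which ranked 21. On chromosome 11 it was the second most compact of 100, after a run of 52.0 kb that starts at 87236488.

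The proximal group of 4 peaks was looser, spanning 87.1 kb, and also held 0 MEF peaks. Its members were at 31670817 to 31671122 (306 bp, the narrowest foetal liver peak on the chromosome), 31731313 to 31731914 (602 bp), 31744857 to 31746203 (1347 bp) and 31756992 to 31757872 (881 bp). It followed the longest stretch of the chromosome without a foetal liver peak, 14.8 Mb from 16908830 to 31670816, in which MEFs had 5 peaks. The next foetal liver peak after the distal group came 865.3 kb later. In the foetal liver list a long empty stretch thus directly adjoined these groups on the proximal side only. On the distal side, a stretch of 10.3 Mb without a foetal liver peak began further on, at 33937609.

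The MEF peaks of the window stood outside the foetal liver groups. The proximal MEF peak, at 31609216 to 31610366 (1151 bp), lay 60.5 kb before the first foetal liver peak. The distal one, at 32242423 to 32243241 (819 bp), lay 44.9 kb after the last. No MEF peak was listed in the 632.1 kb between them.

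**Figure D2:**
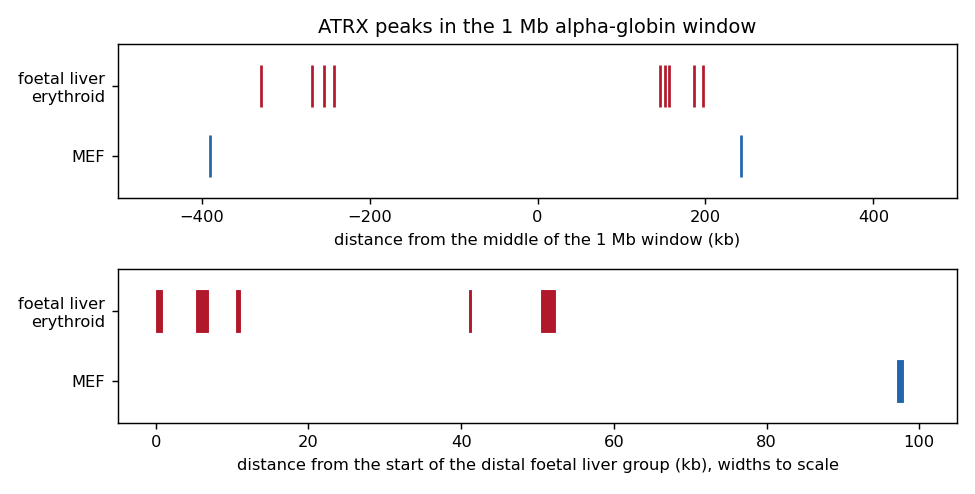
Positions of ATRX peaks in the alpha-globin window, with 1 row per list. The upper panel marks peak midpoints by their distance from the middle of the window in kb, and the lower panel draws the distal foetal liver group to scale by distance in kb from its first base. The 9 foetal liver peaks form groups of 4 and 5, and the 2 MEF peaks lie outside them.

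Both lists were denser towards the telomere side. The distal 50% of the sequenced chromosome held 71 of 104 foetal liver peaks (68.3%, 58.4 to 77.1%) and 74 of 107 MEF peaks (69.2%, 59.5 to 77.7%). Within that similar tilt the bin with the largest count differed between the lists, though some bins were high in both, such as 93 to 98 Mb with 8 foetal liver and 9 MEF peaks. In 5 Mb bins the largest foetal liver counts were 13 peaks at 83 to 88 Mb and 11 at 98 to 103 Mb, where MEFs had 6 and 9. The largest MEF counts were 13 in the last bin, from 118 Mb to the end, and 10 at 113 to 118 Mb, where foetal liver had 2 and 9. Bins without a peak numbered 5 in foetal liver and 1 in MEFs. Across the 24 bins the counts had a Pearson r of 0.44 and a Spearman rho of 0.56, given as a description, since the bins share a chromosome and a pair of libraries.

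The chromosome's distal end was MEF-rich. In its last 5 Mb lay 20 of 107 MEF peaks (18.7%, 11.8 to 27.4%) and 6 of 104 foetal liver peaks (5.77%, 2.15 to 12.1%). With those 5 Mb left out, r was 0.57 and rho 0.58. Ends of other chromosomes are not compared here, so the MEF-rich end is not read as particular to chromosome 11. The most distal peaks were a foetal liver peak at 121409152 to 121409585, 434.3 kb from the end of the assembly, and a MEF peak at 121230449 to 121230923, 612.9 kb from it. At the centromere side, where sequence begins after an unsequenced 3 Mb, 2 foetal liver and 3 MEF peaks lay in the first 1 Mb. The most proximal were at 3004832 to 3006003 in foetal liver and 3049438 to 3051823 in MEFs. Whether repeat-rich regions were removed from the lists is not given in the sources used here.

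**Figure D3:**
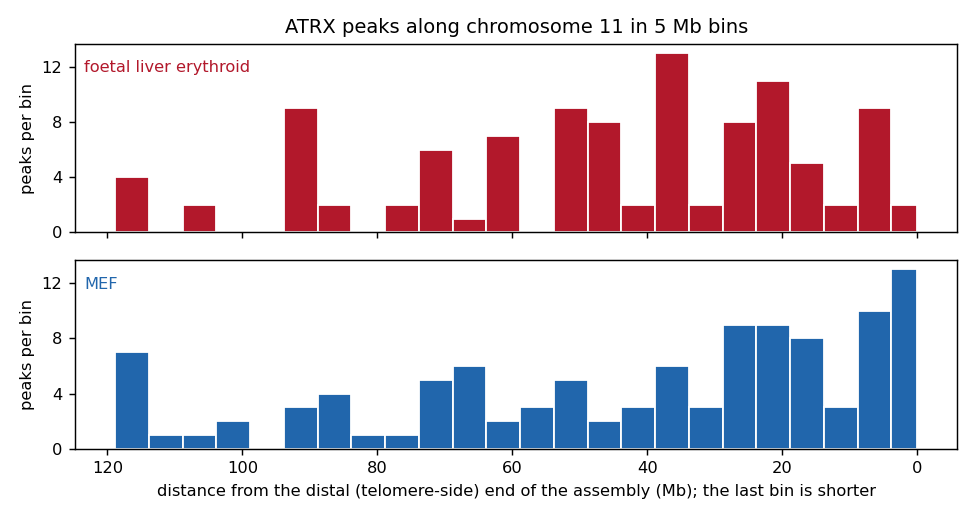
ATRX peaks per 5 Mb bin (y axis) along chromosome 11, drawn by distance in Mb from the distal end of the assembly (x axis), foetal liver above and MEF below. Foetal liver reaches its highest count of 13 in the bin at 83 to 88 Mb, a position counted from the start of the assembly and not along the drawn axis. MEFs reach 13 in the last, shorter bin at the distal end.

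Some foetal liver peaks on chromosome 11 came in small groups. Another foetal liver peak lay within 10 kb of 29 of the 104 (27.9%, 19.5 to 37.5%), against 18.8% over the whole list, a share that ranked 3 of 21 chromosomes. These 29 peaks formed 14 chains, of which 13 were pairs. In MEFs it was 10 of 107 (9.35%, 4.57 to 16.5%) against 13.0% over the whole list, rank 16 of 21, in 5 pairs. Such a share can depend on peak density, and the chromosome was chosen by its foetal liver count, so the foetal liver share is a description. Density on the chromosome was 0.875 peaks per Mb in foetal liver and 0.9003 in MEFs. The part of density in these shares was not tested.

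The densest 1 Mb windows show where those groups sat. In foetal liver the first was the alpha-globin window, with 9 peaks. The second also had 9 peaks, from 68854324 to 69809290, with 2 MEF peaks in its span. The third had 8, from 87236488 to 88043402, with 4 MEF peaks. Another, outside the naming rule and added after its values were seen, held 7 foetal liver and 5 MEF peaks from 101467778 to 102237780. Together these 4 held 33 of the 104 foetal liver peaks (31.7%). The alpha-globin span of 526.7 kb held 0 MEF peaks, but it is also the shortest of the 4 spans, which run up to 955.0 kb, and the full 1 Mb from its first peak held 1. The 5 foetal liver peaks that open the second window, from 68854324 to 68939316 (85.0 kb), also had 0 MEF peaks among them.

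The densest MEF windows were less full. They held 7 peaks from 116927625 to 117796111, 6 from 101312888 to 102161494 and 5 from 120057484 to 120717838, with 4, 4 and 1 foetal liver peaks in their spans. Windows from 118874969 to 119577746 and from 87106650 to 88034779 tied the third with 5 MEF peaks each. They had 0 and 7 foetal liver peaks in their spans. The MEF window at 101312888 overlaps the foetal liver window at 101467778. The MEF window at 87106650 overlaps the foetal liver window at 87236488. Both stretches were thus dense in both lists.

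On a fixed grid of 122 windows of 1 Mb, 77 held a peak and 33 held peaks of both lists. Windows with at least 3 foetal liver peaks and 0 MEF peaks numbered 2 (1.64%), against 0.638% of the 2665 windows of all chromosomes. They were 58 to 59 Mb with 3 peaks and 77 to 78 Mb with 4. Windows with at least 3 MEF peaks and 0 foetal liver peaks numbered 6 (4.92%), against 5.33% of all. These were at 35 to 36, 50 to 51, 57 to 58, 107 to 108, 118 to 119 and 119 to 120 Mb, each with 3 MEF peaks except the last, which had 4. The alpha-globin groups are not counted on this grid because a MEF peak falls in each of the 2 grid windows they occupy. On a grid shifted by 0.5 Mb the numbers were 2 and 1, so their order depends on where the grid starts. The rule used this contrast, and nothing is read from these shares.

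Long stretches had no peak. Foetal liver also lacked peaks over 10.6 Mb from 6315378 to 16904678 and over 10.3 Mb from 33937609 to 44282951, in which MEFs had 2 and 5 peaks. The longest MEF stretch without a peak was 7.19 Mb, from 22975856 to 30164767, and foetal liver had 0 peaks there. That stretch was therefore empty in both lists.

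On this chromosome, as elsewhere, MEF peaks tended to be the wider ones. Their median width was 982 bp (850 to 1151 bp, n = 107 peaks). The foetal liver median was 691 bp (601 to 850 bp, n = 104 peaks), which is 291 bp less. Medians on the other chromosomes were 1024 and 674 bp, each within the chromosome 11 interval of its list. By median width chromosome 11 ranked 13 of 21 in MEFs and 10 of 21 in foetal liver. Peaks of 2 kb and over numbered 16 in MEFs (14.95%, 8.80 to 23.1%, against 18.5% over the whole list) and 6 in foetal liver (5.77%, 2.15 to 12.1%, against 4.68%). Width was not used in choosing the chromosome, and both whole-list shares of wide peaks lie within the chromosome 11 intervals.

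**Figure D4:**
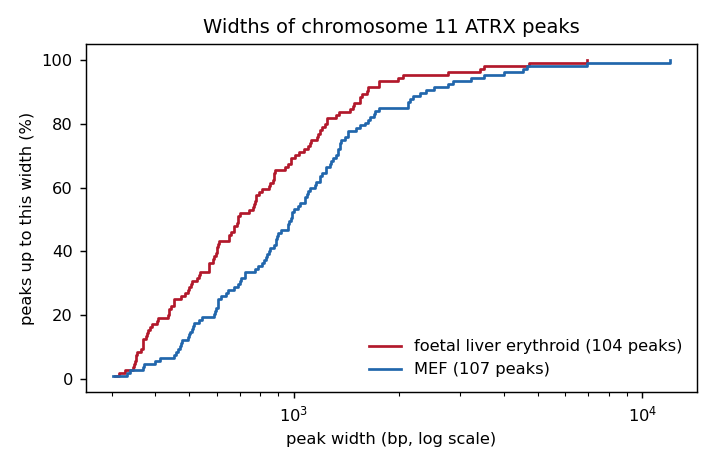
Cumulative share of chromosome 11 peaks (y axis, percent) up to each width (x axis, bp on a log scale), with 1 line per list. The foetal liver line lies left of the MEF line over most of the range, with medians of 691 and 982 bp.

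The widest foetal liver peak on the chromosome was the 6915 bp region at 87236488 to 87243402, which was in both lists. The next were 83085060 to 83089790 (4731 bp), the common region at 116927625 (3507 bp), 87571572 to 87574989 (3418 bp) and the common region at 104676469 (2772 bp). The stretch near 87 Mb gave 2 further members of the 10 widest, at 87278103 to 87280151 (2049 bp) and 87562485 to 87564470 (1986 bp). Next was the peak at 32195811 (1753 bp), in the alpha-globin window. The list of 10 ended with 58114776 to 58116524 (1749 bp) and 102236146 to 102237780 (1635 bp). Wide foetal liver peaks were thus concentrated near 87 Mb, with 4 of the 10 there.

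The widest MEF peak, at 11918390 to 11930357 (11968 bp), stood alone, with the nearest peak of its own list 4911505 bp away and the nearest foetal liver peak 4974 kb away. The other unshared MEF peaks among the 10 widest were at 107643504 to 107648158 (4655 bp), 120580146 to 120584683 (4538 bp), 74978062 to 74982056 (3995 bp), 101519724 to 101522949 (3226 bp), 87261777 to 87264637 (2861 bp) and 120715316 to 120717838 (2523 bp). The remaining 3 were the common regions at 87236488, 116927625 and 104676469. Of the 7 unshared ones, those at 101519724 and 87261777 had a foetal liver peak within 1384 and 148 bp, and for the others the nearest was at least 291.6 kb away.

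Only 4 regions of the chromosome were in both lists. They were 4 of 104 foetal liver peaks (3.85%, 1.06 to 9.56%) against 6.21% over the whole list, and 4 of 107 MEF peaks (3.74%, 1.03 to 9.30%) against 3.12%. The 4 lay at 87236488 to 87243402 (6915 bp), 95275351 to 95276534 (1184 bp), 104676469 to 104679240 (2772 bp) and 116927625 to 116931131 (3507 bp). Start and end were identical in both lists at all 4. The same was true of all 61 foetal liver peaks of the genome that overlapped a MEF peak, and the other 3 of the 64 overlapping MEF peaks, none on chromosome 11, had other boundaries. How identical boundaries arose was not tested. None lay in the alpha-globin window. Both whole-list shares are within the chromosome 11 intervals.

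Some unshared peaks of the lists were next to each other without overlapping. An unshared MEF peak lay within 10 kb of 9 of 100 unshared foetal liver peaks (9.00%, 4.20 to 16.4%), against 5.42% over the whole list. An unshared foetal liver peak lay within 10 kb of 9 of 103 unshared MEF peaks (8.74%, 4.07 to 15.9%), against 2.46%. How often this happens depends on the number of peaks of the other list on the chromosome. For the MEF share that is the foetal liver count, for which chromosome 11 was chosen. The same holds for the median distance from a MEF peak to the nearest foetal liver peak, 293.9 kb here (194.5 to 374.3 kb) and 670.1 kb on the other chromosomes.

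The closest pair was a foetal liver peak at 101507201 to 101507885, 109 bp beyond a MEF peak at 101505494 to 101507091. The next was at 87264786 to 87265904 in foetal liver, 148 bp beyond the MEF peak at 87261777 to 87264637. Gaps of 1384, 1854 and 2554 bp followed, all between 101488882 and 101525430. In these 5 closest pairs the foetal liver peak lay on the distal side of the MEF peak each time, and in 8 of the 11 pairs within 10 kb on the chromosome. Over all chromosomes it did so in 31 of 54 such pairs. Pairs share peaks, so they are not independent.

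Most of the close pairs lay in 2 short stretches that hold peaks of both lists. With peaks of either list joined when within 20 kb, a distance chosen after the values were seen, 12 stretches of the genome held at least 2 peaks of each list, and 2 of them were on chromosome 11. The first ran from 87236488 to 87288446 (52.0 kb). It opened with the common 6915 bp region and went on with 4 foetal liver peaks and 1 MEF peak that did not overlap. The other ran from 101488882 to 101525430 (36.5 kb), with 4 MEF and 3 foetal liver peaks. There each foetal liver peak followed a MEF peak, at 101492869 to 101493629 (761 bp), 101507201 to 101507885 (685 bp) and 101524334 to 101525430 (1097 bp). Without heights or reads, a site bound in both cell types but bounded differently and adjacent separate sites cannot be told apart.

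**Figure D5:**
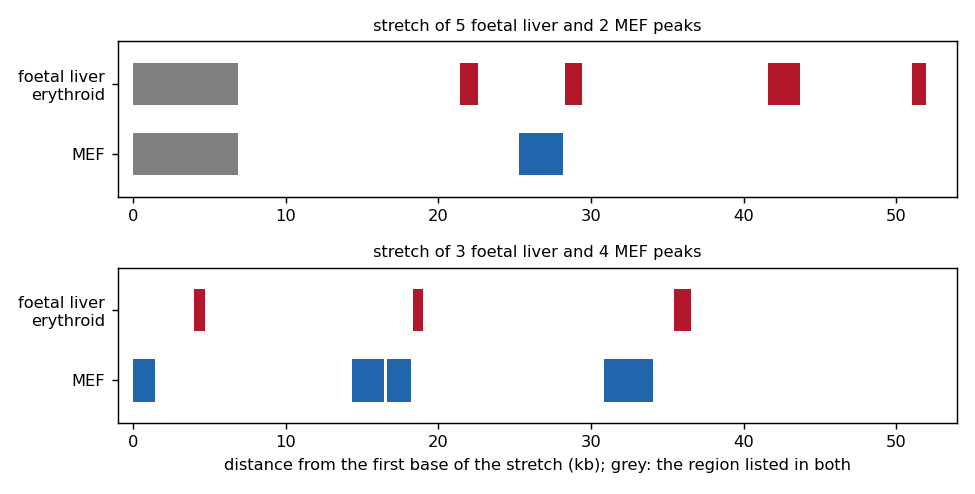
Peaks drawn to scale in the 2 chromosome 11 stretches that hold at least 2 peaks of each list when peaks within 20 kb are joined. Positions are distances in kb from the first base of the stretch, with 1 row per list. Grey marks the 6915 bp region listed in both, and no other peak of one list overlaps a peak of the other.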

How the data were processed

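ATRX ChIP-seq peaks of 2 libraries were used as the authors deposited them. The submitters' processing notes name Bowtie 0.12.3 and the build mm9. For the peak calling, the program, cut-off, control library and filters were all unstated in the sources used here. Each deposited file has 3 columns, chromosome, start and end, and no score, so no stricter threshold could be applied. Depth is unknown. Starts are printed counted from 1. Lengths of mm9 chromosomes came from GenomeInfoDb 1.38.1 in R 4.3.3. Counts, intervals and distances were obtained with scipy 1.17.1 and numpy 2.4.6 under Python 3.11.15, and the functions were checked on constructed lists.

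Overlap meant at least 1 bp, distances were measured edge to edge, and windows and bins were filled by peak midpoint. Shares have Clopper-Pearson intervals and medians have order-statistic intervals. Named regions were to be all peaks in the alpha-globin window, all common regions, the 10 widest peaks, the 3 densest windows and the outermost peaks of each list, and the 5 closest unshared pairs. The members and these lists were chosen with earlier results of these data known.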

Additional observations from a re-analysis of the deposited data

How the results depend on the processing

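No paired analysis was possible because each group has 1 library. The alternatives were other definitions of a peak, an overlap, a neighbour, a window and a bin, and 2 of them (leaving out the alpha-globin window, or the last 5 Mb) were chosen after seeing the data. Of 82 recomputed values of 20 results, 59 stayed close to the reported value, meaning within the counting interval for shares and medians, within 1.5 times for counts, ratios and differences, and within 0.1 for correlations. The ratio of chromosome 11 shares stayed above 1 and the MEF median stayed the wider one under the alternatives run. The order of the lists did turn for some results that were close, and for neighbours within 1 kb, given below. Shared peaks were 5.77% in foetal liver and 6.54% in MEFs within 1 kb, and 7.41% and 8.00% among the wider 50%. The distal 50% of the chromosome held 75.9% and 72.0% among the wider 50%, and 66.3% and 62.1% without the last 5 Mb. The foetal liver list kept rank 1 on chromosome 11 in number and density among the wider 50% of peaks, with peaks within 1 kb merged, and with peaks within 100 kb counted once. In the last case the ratio of shares was 1.57.

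Counting a peak of the other list within 10 kb as shared gave 12.5% in foetal liver and 13.1% in MEFs. A neighbour within 1 kb was found for 0% of foetal liver peaks and 5.61% of MEF peaks. One within 100 kb was found for 60.6% in foetal liver and 29.0% in MEFs. The MEF share within 10 kb fell to 3.85% after merging within 1 kb and to 4.00% among the wider 50%. Those wider peaks had medians of 1114 bp in foetal liver and 1428.5 bp in MEFs by construction, and with fewer peaks the median distances to the other list became 532.2 and 864.7 kb. Windows with foetal liver peaks only and with MEF peaks only numbered 2 and 6 as reported, 2 and 1 on a grid shifted by 0.5 Mb, 0 and 3 at 2 Mb, 8 and 9 with at least 2 peaks, and 2 each among the wider 50%, so the larger number of MEF windows did not hold under every setting. In the alpha-globin window foetal liver and MEF peaks numbered 5 and 1 in its distal 0.5 Mb and 5 and 1 among the wider 50%. Counted once within 100 kb, they numbered 2 (the groups above) and 2, so the lists tied. The Pearson r of bin counts was 0.58 in 10 Mb bins and 0.57 without the last 5 Mb. Beyond these constructions the cause of a change was not tested. With no heights or reads, weaker sites missing from a list cannot be told from unbound ones.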
